A study of Mus musculus with 18 samples.

Results

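Kidney transcripts of mice that received a control faecal transplant while on a high fat diet were compared with those of mice on the high fat diet alone, using 6 of the 18 libraries of the series, 3 per group. All mice were of the ICR strain, an outbred stock, and 10 weeks old. The HFD group was fed the high fat diet and had no further treatment in the labels. The HFD+control-FMT group was fed the same diet and was given a faecal microbiota transplant (FMT, donor faeces that carry gut microbes) labelled control. The HFD+AOS-FMT group, used for comparison, received a transplant labelled AOS 10 mg/kg on the same diet. The untreated control group, which carried neither the diet nor a transplant, serves as a reference for levels. The groups labelled AOS and HFD+AOS, each with AOS at 10 mg/kg, enter the shared estimate of the spread. Their levels are given for a few genes. AOS is written as in the labels. The labels do not say who the donors were, how long the diet or the transplants lasted, or whether an HFD mouse received a mock transplant, so the transplant and the procedure cannot be told apart. Nothing in them says that the 3 libraries within a group are different mice. All p-values therefore rest on the spread between libraries, and that spread may be technical.

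Each value is a normalized signal of a gene, with 19518 genes in the table. The 12031 genes with a signal of at least 1 in 3 or more of the 18 libraries were tested. Differences are of log2(value + 1), a scale on which changes of weakly expressed genes appear too small. Signals of the 6 compared libraries summed to between 701230 and 717921, and Kap, an androgen-dependent proximal tubule transcript, took 20.2% to 22.9% of each sum. The number of reads behind a value is unknown. Steps between low values gave the 6 libraries a depth of 0.994 to 1.03 relative to the median library, so depth was nearly equal between them. Pearson's r of the log2 values across genes was 0.9896 to 0.9919 within the HFD group, 0.989 to 0.9926 within the HFD+control-FMT group, and 0.9875 to 0.9932 between the groups. The ranges overlapped, and both the lowest and the highest value were of pairs between the groups. HFD replicates 1 and 2 stood apart in transcripts that kidney does not normally hold. The summed signal of 22 testis germ cell genes was 81.2 and 85.1 in HFD replicates 1 and 2, against 38.9 in HFD replicate 3 and 37.5 to 40.0 in the HFD+control-FMT libraries. Prm1, the sperm protamine, was at 8.08, 7.84 and 0 in the HFD libraries and 0, 0.3 and 0 in the HFD+control-FMT libraries, so only HFD replicates 1 and 2 held more than 0.3. Outside the 6, control replicate 3 stood far from every other library, with a summed adrenal gland signal of 992.7 against 2.9 in each of the other control libraries and Kap at 2.48% of its sum. It enters the control means and the spread shared by all tests, and its values are given where a result rests on it. Kidney markers were present in all 6 libraries. Signals of 29 proximal tubule transport genes summed to 8745 to 9200 in the HFD libraries and 8592 to 9093 in the HFD+control-FMT libraries.

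A high fat diet loads the kidney with lipid, and the tubule cells of the kidney live mostly on the oxidation of fatty acids, which the nuclear receptor PPAR alpha drives. Cells match the supply of fat and sterol through the SREBP transcription factors, which turn on enzymes of fatty acid and cholesterol synthesis, and match the folding capacity of the endoplasmic reticulum (ER) to its load through ATF6, XBP1 and ATF4. Faecal transplantation changes the bile acids, short fatty acids and other microbial products that reach the kidney in the blood, and is used to ask whether an effect travels with the gut microbes.

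No gene passed. In limma's test with Benjamini-Hochberg adjustment, 0 of 12031 genes (0.0%) had an adjusted p under 0.05 in either direction, and the smallest adjusted p was 0.5. Without adjustment, 541 genes (4.5%) had p under 0.05, fewer than the 602 expected if no gene differed. With control replicate 3 left out of the shared spread 1044 had p under 0.05, and still 0 passed after adjustment. Without HFD replicate 3, 8 genes passed, all lower with the transplant and all of them germ cell genes. Of the 541, 339 (2.82%) were higher and 202 (1.68%) were lower in the HFD+control-FMT libraries. The 3 libraries of 1 group lay wholly above or below the 3 of the other for 1858 genes (15.4%), 1091 of them higher (9.07%) and 767 lower (6.38%) with the transplant.

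The data also bound how large a difference on this scale could be, given the spread between these libraries, which may be technical. The log2 difference lay within 0.5 of 0 for 98.3% of genes, which is a 1.41-fold change at high signal and a larger one at low signal. Its 95% confidence interval lay wholly within that range for 75.8% of genes and within 1.0 for 95.8%. The median interval reached 0.25 on either side of the estimate. Only 15 genes were higher and 17 lower by more than 1.0. A difference of 1.0 in either direction thus lay outside the interval of most genes. That is a 2-fold change only at high signal, so for weakly expressed genes a 2-fold change may lie within the interval.

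**Figure D1:**
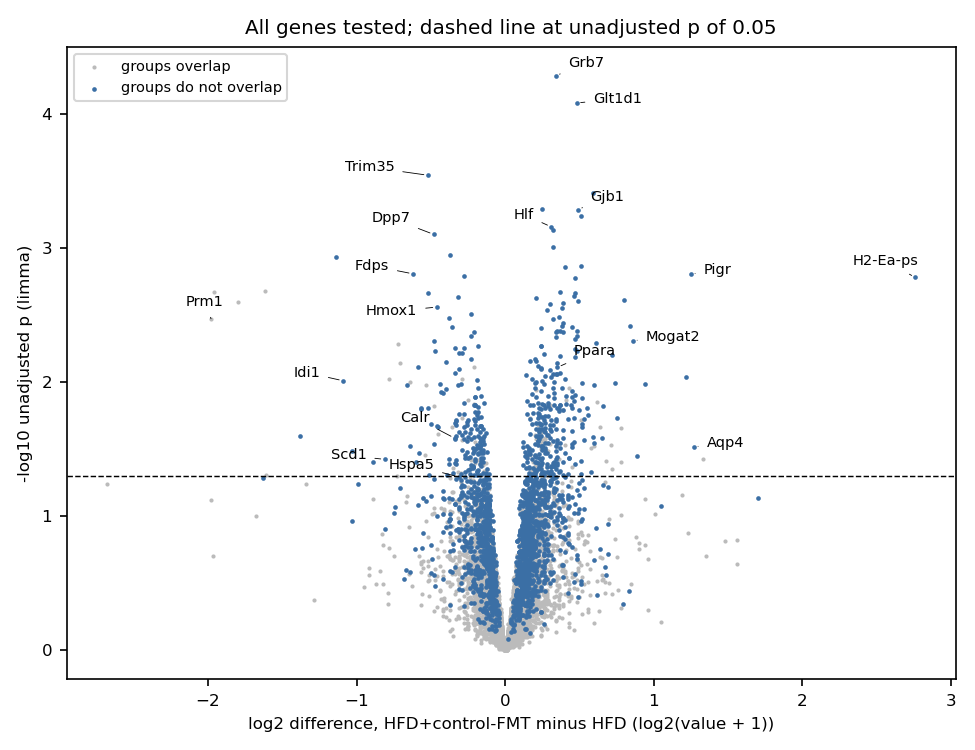
Log2 difference between the HFD+control-FMT and HFD libraries (x axis) against -log10 of limma's unadjusted p (y axis) for the 12031 genes tested. Blue points are the 1858 genes whose groups did not overlap, the dashed line is an unadjusted p of 0.05, and no gene passed after adjustment.

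Genes of ER folding lay lower with the transplant in many members. Of 22 listed chaperones and stress genes 21 were tested, and in 11 of them (52.4%, against 6.38% of all genes) all 3 HFD+control-FMT libraries lay below all 3 HFD libraries. None had groups that did not overlap in the other direction. Of the 21, 16 were below 0, as were 46.3% of all genes (53.7% were above), the median log2 difference was -0.18 against 0.01 over all genes, and 3 had an unadjusted p under 0.05, all lower. No member passed after adjustment. Without HFD replicates 1 and 2, the libraries with germ cell transcripts, 13 of 21 (61.9%) lay below the remaining HFD library, where 23.8% of all genes did.

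Among these were chaperones of the ER lumen and membrane. Hspa5 (chr2:34771970-34777547, GRCm38), the ER chaperone BiP that holds the stress sensors inactive, was at 279, 257 and 287 in the HFD libraries and 216, 227 and 217 in the HFD+control-FMT libraries. All 3 transplant libraries were lower, and the log2 difference was -0.31 (95% interval -0.63 to 0.00, unadjusted p = 0.051, adjusted p = 1 in limma). Calr (chr8:84841850-84846934), calreticulin, which folds glycoproteins and binds calcium, was at 655, 699 and 672 and 539.7, 524 and 536 in the same order of groups. The 2 groups were separated by more than the range within either, with a log2 difference of -0.34 (-0.63 to -0.05, unadjusted p = 0.0262). Canx (chr11:50293961-50325673), calnexin, its membrane-bound partner, was at 125, 127 and 124 in the HFD libraries and 113, 108 and 109 with the transplant. The groups again did not overlap, and the difference was -0.18 (unadjusted p = 0.0455). Hsp90b1 (chr10:86690209-86705509), the ER form of HSP90 known as GRP94, was at 279, 266 and 267 and 221, 246 and 219.5, a difference of -0.24 (unadjusted p = 0.0882).

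The starts of these 4 genes are shown because they share a sequence that ATF6 and NF-Y are known to bind, the ER stress response element. It was searched on both strands as CCAAT, 9 further bases of any kind and CCACG in RefSeq windows (GRCm38.p6) of 250 bases before to 50 after each gene's start. The 250 bases before the start are printed 5′ to 3′ in the direction of the gene, at chr2:34771840-34772089 on the + strand for Hspa5, chr10:86705445-86705694 on the - strand for Hsp90b1, chr8:84846932-84847181 on the - strand for Calr and chr11:50325674-50325923 on the - strand for Canx. The starts are those of RefSeq, while the gene spans given above are from GENCODE. For Hspa5, Hsp90b1 and Calr the printed bases therefore lie partly within those spans. Capitals mark the element, which reads CGTGG first where it lies on the other strand.
Hspa5: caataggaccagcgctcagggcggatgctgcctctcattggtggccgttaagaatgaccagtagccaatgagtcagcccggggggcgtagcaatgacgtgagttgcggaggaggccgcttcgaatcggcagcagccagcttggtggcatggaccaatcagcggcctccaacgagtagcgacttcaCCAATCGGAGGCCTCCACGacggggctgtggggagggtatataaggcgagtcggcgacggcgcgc
Hsp90b1: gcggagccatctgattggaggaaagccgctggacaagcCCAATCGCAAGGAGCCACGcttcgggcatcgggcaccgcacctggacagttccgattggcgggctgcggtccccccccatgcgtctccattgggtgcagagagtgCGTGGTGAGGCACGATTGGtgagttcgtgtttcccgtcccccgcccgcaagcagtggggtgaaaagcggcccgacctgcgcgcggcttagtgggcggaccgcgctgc
Calr: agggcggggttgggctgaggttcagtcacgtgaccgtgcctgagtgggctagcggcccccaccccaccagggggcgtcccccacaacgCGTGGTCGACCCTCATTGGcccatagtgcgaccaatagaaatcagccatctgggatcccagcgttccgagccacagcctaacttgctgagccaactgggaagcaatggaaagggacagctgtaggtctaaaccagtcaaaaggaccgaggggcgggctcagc
Canx: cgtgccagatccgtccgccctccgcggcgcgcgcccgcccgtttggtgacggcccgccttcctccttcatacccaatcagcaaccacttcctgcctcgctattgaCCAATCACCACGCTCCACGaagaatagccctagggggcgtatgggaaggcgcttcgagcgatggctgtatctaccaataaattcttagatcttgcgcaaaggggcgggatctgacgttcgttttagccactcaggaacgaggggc

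Hsp90b1 held 2 matches, 1 on each strand, and the other 3 held 1 each. Of the 21 tested members of the list 18 had a window in the table, and 7 of these (38.9%) held the element. It was in 37 of 27025 genes (0.137%) of the whole table and in 17 of 9528 tested genes (0.178%). The list was picked as genes of ER folding and stress, for which the element is named, so its share describes the list and is no result of these libraries. The 7 were Calr, Canx, Creld2, Dnajc3, Hsp90b1, Hspa5 and Pdia6. In 6 of them the transplant libraries lay wholly below the HFD libraries, as they did in 6.38% of all genes. In Creld2 the groups overlapped, at 28.4, 24.7 and 27.3 against 25.1, 22.5 and 23.3. The median difference of these 7 was -0.23. Among the 11 members whose window lacked it the median was -0.07, and 3 of the 11 (Dnajb11, Pdia3 and Sdf2l1) did not overlap. The 3 members with no window (Atf6, Hyou1 and Manf) had a median of -0.22, and 2 of them were lower without overlap. The 11 members whose window lacked the element include Atf4 and its target Ddit3, so they differ from the 7 in more than the element. Tested genes outside this list that hold the element were not set beside the 7. Whether the element bears on the differences was not tested. A match is a description of the letters, and binding was not measured here.

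Other folding genes that did not overlap were the disulfide isomerases Pdia3, at 334, 324 and 326 against 283, 287 and 288 (-0.20), and Pdia6 (-0.23), the cochaperones Dnajb11 (-0.22, unadjusted p = 0.0423) and Dnajc3 (-0.08), and Hyou1, Manf and Sdf2l1 (-0.22, -0.31 and -0.37). Manf, a secreted ER stress protein, was at 41, 36.7 and 42.5 in the HFD libraries and 32, 30.6 and 33.6 with the transplant. The arm of the response that ATF4 leads showed no such separation. Atf4 itself was at 95.4, 71.1 and 103 against 101, 118 and 80.8 (log2 difference 0.15), and its target Ddit3, the CHOP death factor, at 15.2, 10.5 and 26 against 23.9, 27.3 and 11.1 (0.26). Both overlapped widely between the groups, and without HFD replicate 2 their differences were -0.01 and -0.03. Xbp1 (0.01), Atf6 (0.00), Dnajb9 (0.03) and Herpud1 (0.09), which removes misfolded proteins, were near 0. Hspa5 was 274 ± 15.8 (SD, n = 3) in HFD, 220.1 ± 6.25 in HFD+control-FMT and 198 ± 25.1 in HFD+AOS-FMT, and it was 185, 296 and 189 in the control libraries, which spanned both HFD groups.

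**Figure D2:**
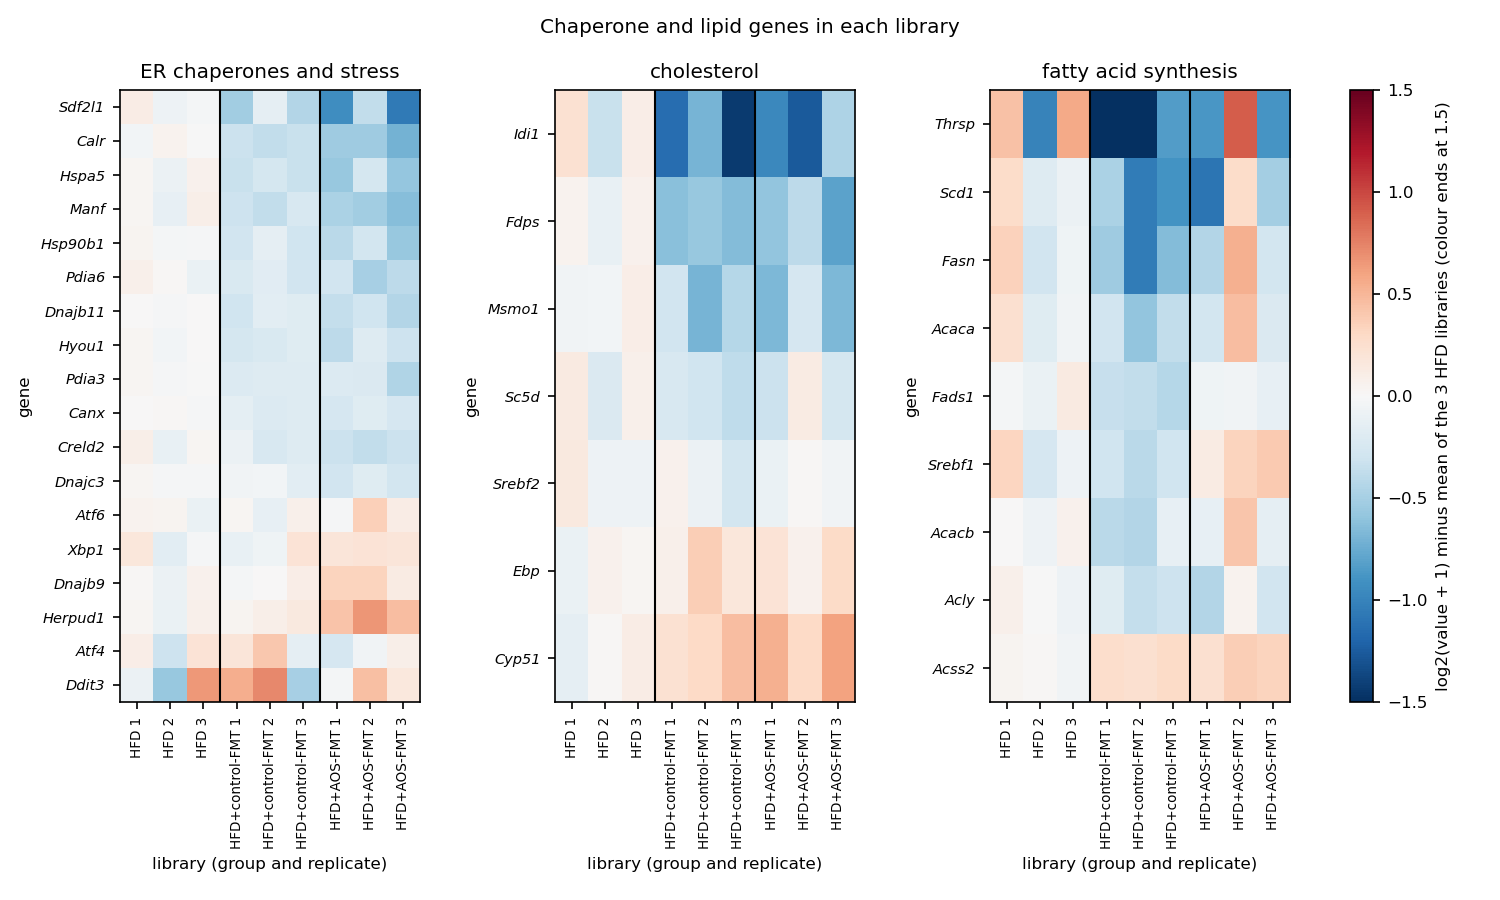
Log2(value + 1) of each library minus the mean of the 3 HFD libraries, for the tested members of 3 gene lists that the text names (rows, ordered by the difference) in the HFD, HFD+control-FMT and HFD+AOS-FMT libraries (columns), with colours ending at 1.5. The upper rows are blue across all 3 HFD+control-FMT libraries, among them the chaperones Hspa5 and Calr, the cholesterol genes Fdps and Idi1 and the fatty acid genes Scd1 and Fads1, whose groups did not overlap.

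Genes of cholesterol synthesis were lower in part. Of 25 tested, 20 were below 0 with a median of -0.11. The groups did not overlap in 8, of which 6 were lower (24.0% of the list, against 6.38% of all genes) and 2 higher (8.0%, against 9.07%), and 4 lower and 2 higher members had an unadjusted p under 0.05. Without transplant replicate 1, 11 were lower without overlap, as were 11% of all genes. With any other 1 library left out 6 to 9 were, where 10.2% to 12.4% of all genes were. The largest differences were at the isoprenoid steps in the middle of the pathway. Fdps (chr3:89093588-89101959), farnesyl diphosphate synthase, was at 21.9, 19.5 and 22.2 in the HFD libraries and 13.3, 13.9 and 13.1 in the HFD+control-FMT libraries. The 3 transplant libraries lay within 1 unit of each other and well below the diet libraries, with a log2 difference of -0.62 (-0.96 to -0.28, unadjusted p = 0.00156, adjusted p = 0.959). Idi1 (chr13:8885501-8892451), the isomerase that feeds it, was at 37.7, 25.1 and 34.3 and 13.9, 19.3 and 11.2, a difference of -1.09 (unadjusted p = 0.00978). Msmo1, a sterol methyl oxidase, was at 28.8, 29 and 32.3 against 24.5, 18.2 and 22 (-0.47).

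Sc5d, which acts late in sterol synthesis, was also lower without overlap (-0.31). Against this direction, Cyp51, the lanosterol demethylase, was higher at 75.3, 83.7 and 89.6 against 96.8, 102 and 114 (0.33, unadjusted p = 0.0422), and so was the isomerase Ebp (0.20). Srebf2, the factor that drives the pathway, differed by -0.10. The sterol regulatory element, searched as TCACNCCAC, was in the window of 1 of 17 genes with a window, Hmgcs1, and in 1.44% of genes of the whole table.

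Genes of fatty acid synthesis lay lower in part. In 7 of 22 tested genes (31.8%, against 6.38% of all genes) the transplant libraries lay wholly below the HFD libraries, in 1 (4.55%, against 9.07%) wholly above, and the median was -0.12. Without HFD replicate 2 the counts were 11 and 3, where the shares over all genes were 11.8% and 15%. With any other 1 library left out they were 7 to 9 lower and 1 to 2 higher. Over all genes 10.2% to 12.4% were then lower and 12.9% to 16.5% higher. At an unadjusted p under 0.05, 5 were lower and 1 was higher. Acly, which makes cytosolic acetyl-CoA from citrate, was at 46.1, 43.8 and 41.7 in the HFD libraries and 38.5, 34.1 and 35.1 in the HFD+control-FMT libraries (-0.28, unadjusted p = 0.0142). Scd1, which puts the double bond into stearate, was at 27.9, 19.9 and 21.5 against 16.1, 10.6 and 11.8 (-0.81, unadjusted p = 0.0377). Every transplant library was below every diet library in both genes. Fads1, the delta-5 desaturase, was at 24.4, 23.3 and 27.6 against 19.6, 19.2 and 18.4, a difference of -0.38 (-0.61 to -0.15, unadjusted p = 0.00333, adjusted p = 0.967). Srebf1 (chr11:60199089-60222581), the factor that turns on these enzymes, was at 12.8, 8.29 and 9.46 and 7.95, 7.33 and 7.96 (-0.34, unadjusted p = 0.0202), with HFD replicate 1 the highest library. Fasn (-0.75), Acaca (-0.42) and Acacb (-0.32), the synthase and the carboxylases, did not overlap either, with unadjusted p between 0.0951 and 0.124.

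Acss2, which makes acetyl-CoA from acetate, went the other way. It was at 119, 117 and 111 in the HFD libraries and 139, 137 and 141 with the transplant, a log2 difference of 0.27 (0.08 to 0.46, unadjusted p = 0.00894), and all 3 transplant libraries were higher. The fatty acid genes were read beside fat cell markers, since fat around the kidney expresses them too. Of 16 tested adipose genes 15 were below 0, with a median of -0.74, none with an unadjusted p under 0.05 and none without overlap. The summed adipose signal was 446.8 to 1064.8 in the HFD libraries and 381.5 to 638.3 in the HFD+control-FMT libraries. Adipoq, the fat cell hormone adiponectin, was at 18.6, 9.52 and 34.9 against 11.8, 7.79 and 8.81, and Ucp1, the brown fat uncoupler, at 42.9, 12.6 and 27.5 against 0.46, 0.96 and 21.6. None of the 16 tested adipose genes was at 0 in an HFD or HFD+control-FMT library. Elovl3, on the list but too low to be tested, was at 0 in HFD replicate 2 and HFD+control-FMT replicate 1. HFD replicate 2, with the least adipose signal of the HFD group (446.8), was also the lowest HFD library for Scd1, Fasn, Acaca and Srebf1. HFD replicate 3, with the most (1064.8), was below HFD replicate 1 (850.7) in all of these, as in Fasn at 12.5 against 16.9. The part of fat cells in these differences was not tested. In bulk tissue, fewer cells of a type and less RNA per cell cannot be told apart.

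Fatty acid oxidation showed the opposite tendency in a few genes. Of 28 tested genes of oxidation and PPAR alpha, 6 (21.4%, against 9.07% of all genes) were higher without overlap and 0 lower, but the median was 0.07 and 2 had an unadjusted p under 0.05. Without HFD replicate 2 the counts were 9 and 2, where 15% and 11.8% of all genes were. Ppara (chr15:85734983-85802819), the receptor itself, was at 11.5, 10.2 and 11.2 in the HFD libraries and 14.9, 14.9 and 13.1 in the HFD+control-FMT libraries. The lowest transplant library stood above the highest diet library, and the log2 difference was 0.35 (0.11 to 0.59, unadjusted p = 0.00777, adjusted p = 1). Vnn1, the pantetheinase that PPAR alpha induces, was at 19.8, 22.3 and 22.6 against 24.2, 31.6 and 30.03 (0.39, unadjusted p = 0.0495). Cyp4a10, a fatty acid hydroxylase, was at 73.1, 92 and 90.01 against 121, 149.9 and 139 (0.68), though its standard error of 0.60, drawn from all 6 groups, was almost as large and its unadjusted p was 0.275. Control replicate 3, which enters that error, was at 831 for Cyp4a10, where the other control libraries were at 93.7 and 77.6. Without that library the difference was 0.68 with an adjusted p of 0.265 in limma, within a range of 0.265 to 1.0 over the alternatives. Reads of its near-identical family members cannot be assigned with certainty.

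Acot1 (0.48) and Hadh (0.10) were higher without overlap as well. The enzymes of mitochondrial oxidation themselves lay close to 0, with Cpt1a at 0.10, Acadm at 0.12, Acadl at 0.06 and Hadha at -0.04. Oxidative phosphorylation was flat, with a median of 0.00 over 28 genes, 0 with an unadjusted p under 0.05, and a range from -0.17 to 0.18. Levels of Ppara fell into 2 sets across the 6 groups. Control, AOS and HFD stood at 10.7 ± 1.64, 10.8 ± 0.554 and 11 ± 0.694 (SD, n = 3), and HFD+control-FMT, HFD+AOS-FMT and HFD+AOS at 14.3 ± 1.05, 17.1 ± 0.87 and 17.9 ± 3.06. No library of the first set reached one of the second. The comparisons with HFD share its 3 libraries, so these levels are set side by side and were not tested as a pattern.

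**Figure D3:**
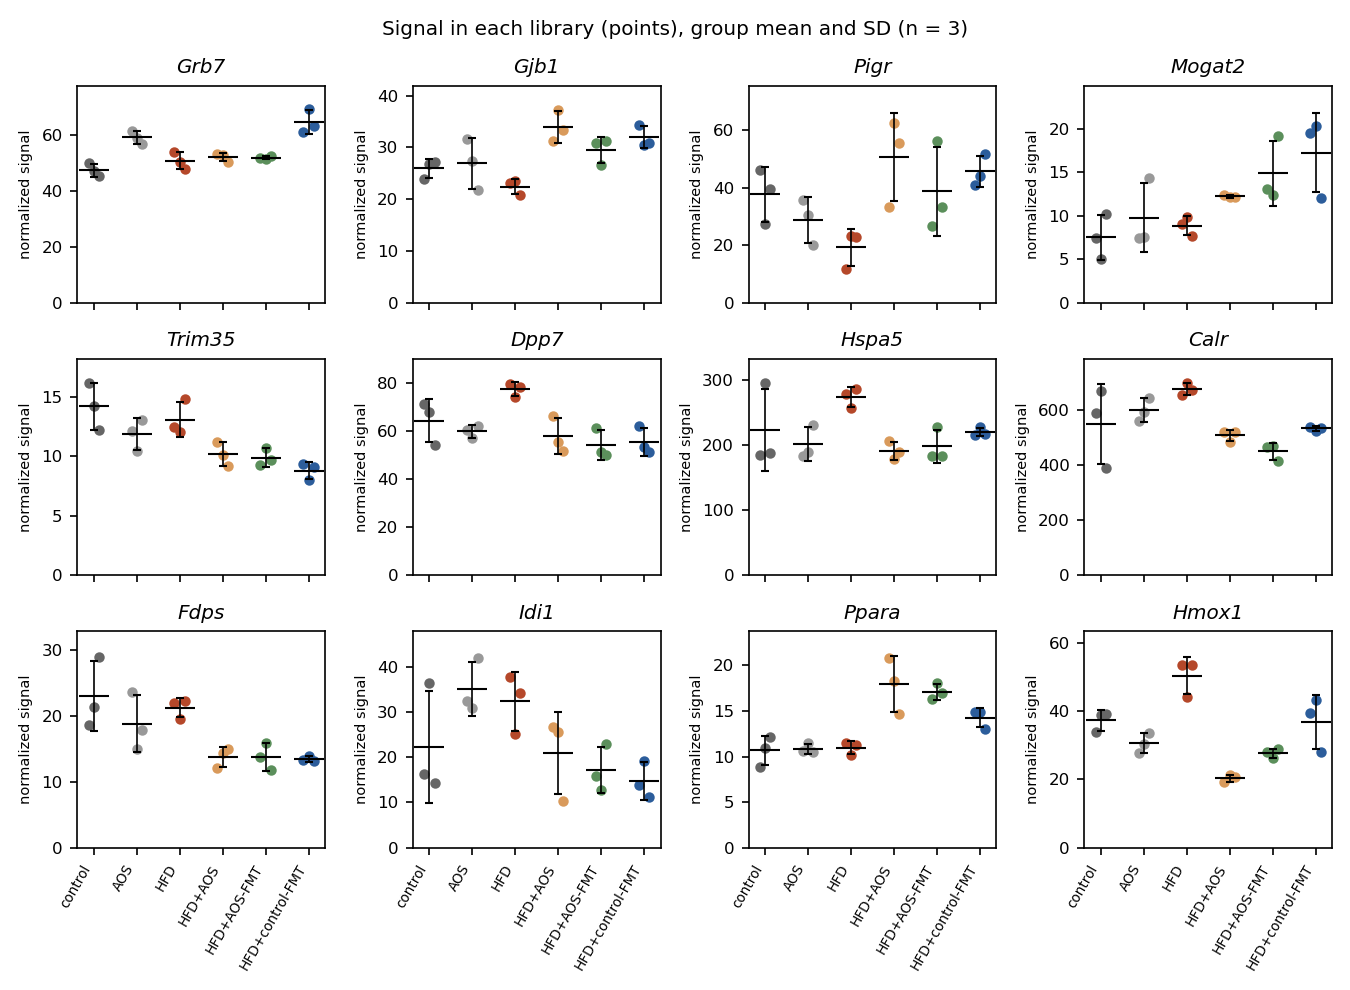
Normalized signal of 12 genes in each of the 18 libraries (points) by group, with the group mean and SD (n = 3) as bars and axes starting at 0. Grb7 is highest in HFD+control-FMT among the groups on the diet, while Fdps and Gjb1 in HFD+control-FMT lie near the other 2 treated groups on the diet. The mean of Ppara in HFD+control-FMT lies between that of HFD and those of the other 2 treated groups.

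Among single genes, the 2 smallest p-values were of Grb7 and Glt1d1. Grb7 (chr11:98446394-98455373), an adaptor that binds growth factor receptors, was at 53.9, 50.1 and 47.9 in the HFD libraries and 60.8, 69.2 and 63.3 in the HFD+control-FMT libraries. The transplant libraries were all higher, by 0.34 on the log2 scale (0.21 to 0.47, unadjusted p = 5.2e-05, adjusted p = 0.5). With the other transplant its level was at 51.7, 51.2 and 52.5 in HFD+AOS-FMT. The difference between the 2 transplants was -0.31 (unadjusted p = 0.00015, adjusted p = 0.284), so it did not pass either. The mice labelled AOS, on no high fat diet, had 59 ± 2.42 (SD, n = 3) and the control mice 47.3 ± 2.25. A pair of growth factor receptors were looked at beside it, chosen after their values were seen. Erbb2 was at 6.87, 7.34 and 6.94 against 8.14, 9.87 and 8.42 (0.28, unadjusted p = 0.0854) and Egfr at 10.7, 9.97 and 12.3 against 14, 11.8 and 12.3 (0.20, unadjusted p = 0.025), the first without overlap. Of 23 genes of insulin and growth factor signalling, 6 were higher without overlap (26.1%, against 9.07% of all genes) and 1 lower (4.35%, against 6.38%), with a median of 0.06. Without HFD replicate 2 these counts were 10 and 5, where the shares over all genes were 15% and 11.8%.

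Glt1d1 (chr5:127632262-127709374), a putative glycosyltransferase, was at 5.49, 4.78 and 4.53 in the HFD libraries and 7.49, 6.56 and 7.85 with the transplant (0.48, 0.29 to 0.68, adjusted p = 0.5). It was the 1 gene that passed when libraries were weighted by their quality (adjusted p = 0.0398). Gjb1 (chrX:101376378-101385629), the gap junction protein connexin 32, was at 23.1, 23.4 and 20.8 against 34.4, 30.5 and 30.9 (0.49, unadjusted p = 0.000517). The HFD group held the lowest mean of the 6 groups for Gjb1, at 22.4 ± 1.44 (SD, n = 3) against 25.9 ± 1.8 in control mice. Others of the 10 smallest p-values were Arhgef39 (0.59), Greb1l (0.51), Ctbs (0.25), a lysosomal chitobiase at 21.9, 23 and 21.8 against 26, 26.5 and 27.6, Top1mt (0.32), the mitochondrial topoisomerase, and Hlf (0.31), all higher with the transplant. Trim35 (-0.52) and the lysosomal peptidase Dpp7 (-0.48) were lower. Their adjusted p-values were 0.954.

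Among genes with a mean of at least 5 in either group and groups that did not overlap, 209 were higher at an unadjusted p under 0.05, and those with the largest differences are named here. Aqp4, the basolateral water channel of the collecting duct, came first at 1.54, 5.41 and 4.93 in the HFD libraries and 11.2, 9.27 and 9.91 in the HFD+control-FMT libraries (1.27, 0.14 to 2.41, unadjusted p = 0.0304). HFD replicate 1 was the lowest, and the control libraries were at 8.9, 5.58 and 15.3, with control replicate 3 the highest. Pigr (chr1:130826684-130852249), the receptor that carries IgA into urine and gut, was at 11.8, 23.3 and 22.7 against 41, 44.1 and 51.7 (1.25, 0.56 to 1.94, unadjusted p = 0.00157, adjusted p = 0.959). Every transplant library was far above every diet library, and the control libraries at 46.1, 27.4 and 39.5 lay between or among them.

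Next in size were genes of varied roles. Mogat2, which rebuilds diacylglycerol from monoacylglycerol, was at 8.99, 9.9 and 7.68 against 19.5, 20.3 and 12 (0.86, unadjusted p = 0.00491). Gamt, the last enzyme of creatine synthesis, was at 17.3, 20.2 and 19.5 against 27.9, 36.8 and 24.7 (0.61, unadjusted p = 0.00512). Slc13a2, the citrate carrier of the proximal tubule, was at 26.1, 34.1 and 26.8 against 42.5, 48.7 and 37.1 (0.55, unadjusted p = 0.0156). In none of the 3 did a transplant library reach down to a diet library. Thnsl2 (0.74), Phlda2 (0.51), Aspg (0.66), an asparaginase, Selenoh (0.59), a selenoprotein, and Ihh (0.65), the signal Indian hedgehog, were higher too, as were Smtnl2 (0.75), Nxph4 (0.72), Lxn (0.60) and Spata24 (0.52). None had an adjusted p below 0.954.

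The largest differences downward, out of 138 genes, were led by Nipal2 at 16.2, 11.4 and 18.1 in the HFD libraries and 1.8, 9.06 and 7.2 with the transplant (-1.38, unadjusted p = 0.0254), followed by Idi1. Atp4a, the catalytic subunit of the gastric proton pump that the collecting duct also uses, was at 7.24, 7.34 and 5.52 against 3.9, 2.72 and 2.89 (-0.89, unadjusted p = 0.0395). Slc25a22, a mitochondrial glutamate carrier, was at 19.8, 16.1 and 13.6 against 12.6, 9.79 and 9.79 (-0.57). Arrdc3, an arrestin relative, differed by -0.52 and the elastase Cela1 by -0.50, the latter with HFD replicate 1 at 119 and the other 2 HFD libraries at about 64. Smcp (-0.51), a sperm protein, was among them, beside the germ cell transcripts of HFD replicates 1 and 2. Tmem254a (-0.52) and Tmem254b (-0.48) are near-identical copies whose reads cannot be assigned with certainty.

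Haem and iron genes differed both ways. Of 17 tested, 8 were above 0 and 9 below, with 2 higher (11.8%, against 9.07% of all genes) and 3 lower (17.6%, against 6.38%) without overlap. Hmox1, haem oxygenase 1, which degrades haem and answers oxidative stress, was at 53.5, 44.1 and 53.5 in the HFD libraries and 39.3, 43.2 and 28 in the HFD+control-FMT libraries. The gap between the groups was narrow, with HFD replicate 2 just above transplant replicate 2, and the difference was -0.46 (-0.73 to -0.18, unadjusted p = 0.00276). Ftl1, the ferritin light chain that stores iron, was at 5096, 5389.7 and 5837 against 4157, 4867 and 3927 (-0.34, -0.56 to -0.12, unadjusted p = 0.00555). Its groups did not overlap, though the gap was smaller than the range within either. Its partner Fth1 differed by -0.04. Tfrc, the transferrin receptor, was lower (-0.31), and Slc25a37, the mitochondrial iron importer, was higher at 9.65, 10.2 and 9.15 against 10.7, 12 and 12 (0.24, unadjusted p = 0.00538). The median of the list was -0.04. The 22 tested antioxidant genes, many of them Nrf2 targets, had a median of 0.01, with catalase (Cat) at 422, 405 and 423 against 458, 467 and 475 (0.16, unadjusted p = 0.0437). All 6 haemoglobin genes, a sign of blood in the tissue, were above 0 with a median of 0.56, none without overlap, and their summed signal was 5777 to 7291 in the HFD libraries and 7049 to 8789 with the transplant.

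Circadian genes differed both ways, with 1 library far from the others. Of 18 tested, 11 were above 0 and 7 below, 6 (33.3%, against 9.07% of all genes) were higher without overlap and 1 (5.56%, against 6.38%) lower, 2 had an unadjusted p under 0.05 and the median was 0.11. Dbp, an output factor of the clock, was at 3.26, 10.2 and 3.36 in the HFD libraries and 10.4, 13.1 and 43.7 in the HFD+control-FMT libraries (1.70, unadjusted p = 0.0729). Replicate 3 of the transplant group was the highest by a wide margin. Arntl, the core activator BMAL1 that runs in antiphase to Dbp, was at 10.9, 8.64 and 10.02 against 8.42, 8.51 and 3.39 (-0.56), with the same replicate lowest. Tef, a relative of Dbp, was at 43.1, 57.2 and 43.8 against 67.8, 61.9 and 76.2 (0.51, unadjusted p = 0.0482), and Hlf, of the same family, at 20.2, 23.7 and 21.8 against 28.7, 27.5 and 26.1 (0.31, 0.16 to 0.47, unadjusted p = 0.000696). In Hlf the 3 transplant libraries lay close together. Per3 (0.61), Ciart (0.62) and Per2 (0.21) were the others. Without replicate 3 of the transplant group the counts were again 6 higher and 1 lower, where 16.5% and 10.4% of all genes were, and without HFD replicate 2 they were 9 and 4, where 15% and 11.8% were. The time of day of collection is not given in the sources used here. Time and treatment therefore cannot be told apart for these genes, or for any other gene here whose level varies through the day.

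Immediate early genes, which respond within minutes to stress and handling, were high in single libraries. Of 18 tested, 16 were above 0 with a median of 0.32, but 0 had an unadjusted p under 0.05 and 1 did not overlap. Fos was at 0.82, 0.63 and 5.14 in the HFD libraries and 2.63, 16.9 and 0.63 with the transplant, Egr1 at 1.69, 2.07 and 26.8 against 6.59, 51.5 and 1, and Jun at 17.9, 11.6 and 23.3 against 29.97, 77 and 14.4. HFD replicate 3 and transplant replicate 2 were each the highest library of their own group in all of these, and without the latter the differences of Fos and Egr1 were -0.11 and -0.65. The inducible heat shock genes Hspa1b, at 64, 13.8 and 89.3 against 123, 232 and 75, and Hspa1a, at 23.7, 5.25 and 33.5 against 46.2, 89.3 and 26.2, which are near-identical copies, followed a like order, with transplant replicate 2 highest. The 21 cytosolic heat shock genes had a median of 0.04.

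**Figure D4:**
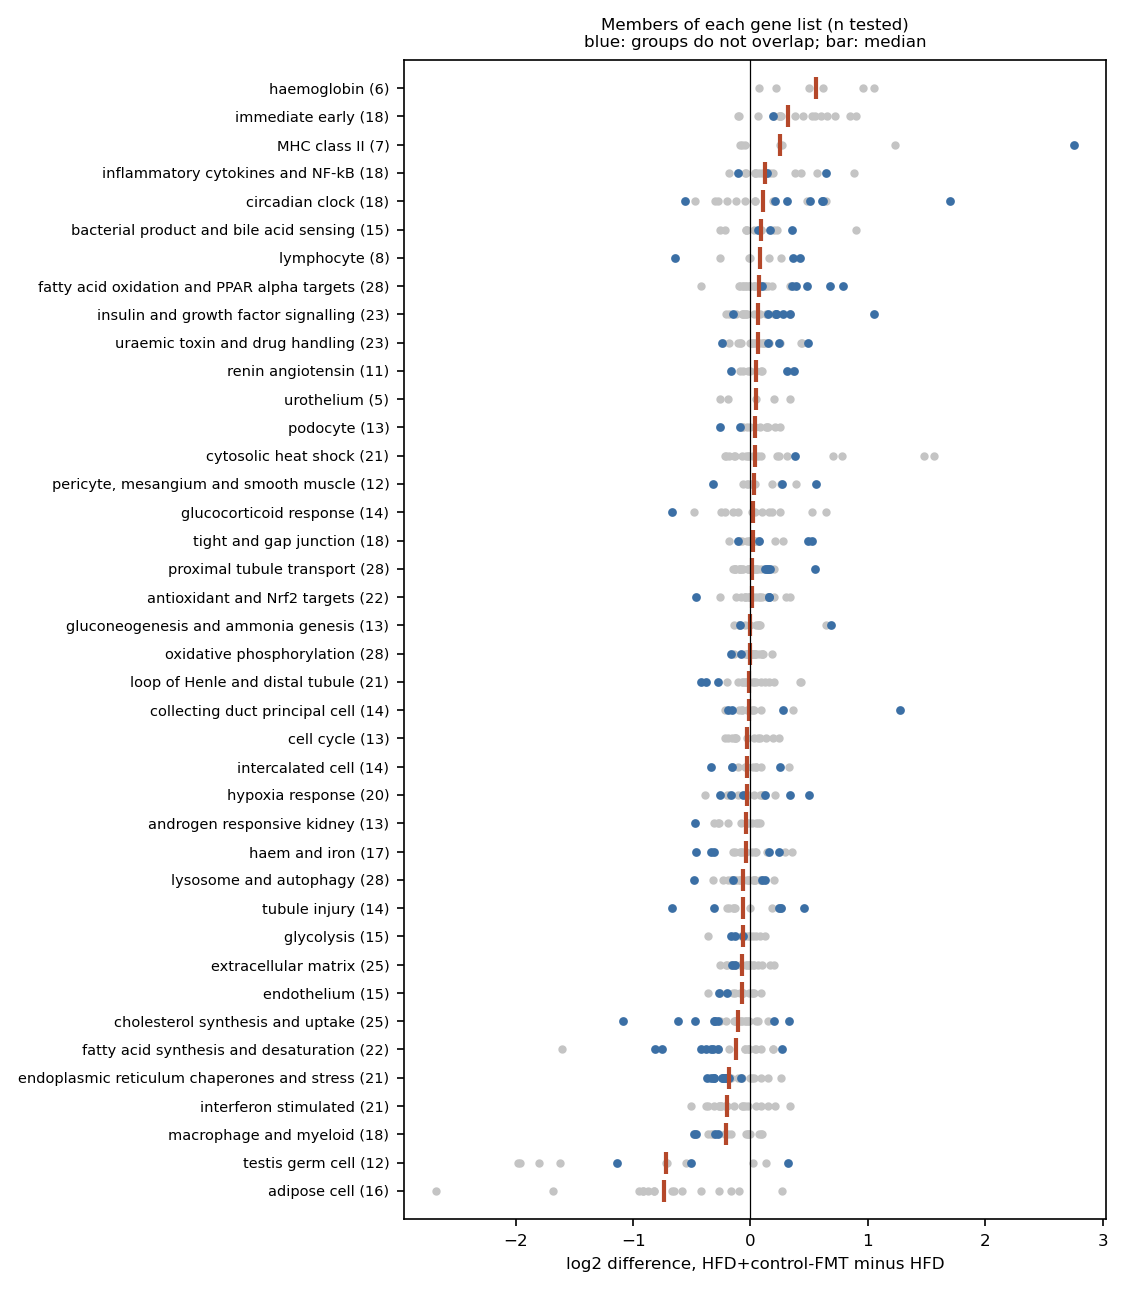
Log2 difference between HFD+control-FMT and HFD for every tested member (points) of the gene lists with at least 5 tested genes, ordered by their median (red bar), with members whose groups did not overlap in blue. Most medians lie near 0, and blue points gather to the left of 0 in the ER chaperone list, with 11 of 21.

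Genes that mark the segments of the nephron lay close to 0. Medians were 0.01 for 28 proximal tubule transporters, -0.01 for 21 loop and distal tubule genes, -0.01 for 14 principal cell genes, -0.03 for 14 intercalated cell genes, 0.04 for 13 podocyte genes and -0.07 for 15 endothelial genes. Slc34a1, the phosphate carrier and among the strongest proximal tubule signals, was at 2669, 2919 and 2668 against 2703, 2553 and 2189 (-0.15), and Umod, the loop protein uromodulin, at 476, 804 and 698 against 687, 717 and 751 (0.16). Both overlapped. Of the 21 loop and distal tubule genes 3 were lower without overlap (14.3%, against 6.38% of all genes) and 0 higher. These were the calcium binding protein Calb1 at 114, 118 and 101 against 88.6, 67.3 and 94.1 (-0.42), the exchanger Slc8a1 at -0.38 and the channel Trpv5 at -0.28, though their unadjusted p-values were above 0.05. Besides Aqp4, the basolateral water channel Aqp3 was higher at 36.2, 34.2 and 39.9 against 42.1, 47.1 and 45 (0.28), while Aqp2 overlapped, at 36.6, 41.4 and 75.8 against 58.6, 72.5 and 58.3. Slc26a4, the anion exchanger pendrin of intercalated cells, was lower at 12.2, 14.1 and 13.9 against 9.88, 12.1 and 9.27 (-0.34, unadjusted p = 0.0264).

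Genes that set vessel tone and the renin angiotensin system gave a few separate values. Mme, neprilysin, was at 13.1, 17.4 and 17.2 in the HFD libraries and 21.5, 19.2 and 21.3 with the transplant (0.37), higher without overlap. The receptor Agtr1a differed by -0.17 and renin, Ren1, by -0.02. Mylk, the myosin light chain kinase, was lower at 22.5, 20.9 and 22 against 18.1, 16.3 and 17.5 (-0.32, -0.50 to -0.13, unadjusted p = 0.00233), while the smooth muscle myosin Myh11 was higher at 1.48, 1.81 and 2.35 against 5, 2.55 and 2.54 (0.56, unadjusted p = 0.0176). These 2 point in opposite directions within the same cell type list, whose median was 0.03.

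Fasting and hormone responsive genes also gave separate values. Pck1, the gate of glucose synthesis in the proximal tubule, was at 556, 685 and 865 in the HFD libraries and 1014, 1434 and 861 in the HFD+control-FMT libraries (0.64, 0.11 to 1.18, unadjusted p = 0.0218). The highest diet library lay just above the lowest transplant library. Slc38a3, which brings in glutamine for ammonia, was at 7.16, 17.1 and 18.5 against 21.3, 22.7 and 21.7 (0.69), with HFD replicate 1 well below the rest. Fkbp5, a glucocorticoid target, was lower at 37.7, 33.6 and 26.6 against 26.8, 20.9 and 21.4 (-0.48, unadjusted p = 0.015), and Klf15, another, was higher (0.25, unadjusted p = 0.0473), so the 14 tested glucocorticoid genes did not lean 1 way (median 0.02). Igfbp1, which fasting raises, was at 0.68, 1.74 and 1.05 against 1.97, 3.26 and 5.63 (1.05).

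Injury and immune genes gave no call. Of 14 tested tubule injury genes 3 were higher (21.4%, against 9.07% of all genes) and 2 lower (14.3%, against 6.38%) without overlap. Havcr1, the injury marker KIM-1, was at 2.04, 2.32 and 2.46 against 2.65, 2.92 and 3.18, low in all 6 libraries, while Vcam1 (-0.31) and Cdkn1a (-0.67) were lower. Of 25 matrix genes none had an unadjusted p under 0.05, and the median was -0.07. Macrophage genes had a median of -0.21 over 18 tested, with 4 lower without overlap (22.2%, against 6.38% of all genes) and 0 with an unadjusted p under 0.05. Without transplant replicate 1 there were 8 (44.4%, against 11%). With any other 1 library left out there were 4 to 6 lower and 0 to 2 higher. Of all genes 10.2% to 12.4% were then lower and 12.9% to 16.5% higher. Tyrobp, the signalling adaptor of myeloid cells, was at 16.8, 13.4 and 14.7 against 9.78, 10.5 and 11 (-0.48, unadjusted p = 0.0527), and the complement gene C1qb at 17.4, 15.8 and 20.6 against 14.9, 9.44 and 14.3 (-0.46), while Adgre1, the F4/80 antigen, differed by -0.02 and Csf1r by 0.07. The summed macrophage signal was 138.2 to 168.3 in the HFD libraries and 112.3 to 146.7 with the transplant, which overlap. The 21 interferon genes had a median of -0.20 with 0 without overlap, and the 18 inflammatory genes a median of 0.12.

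**Figure D5:**
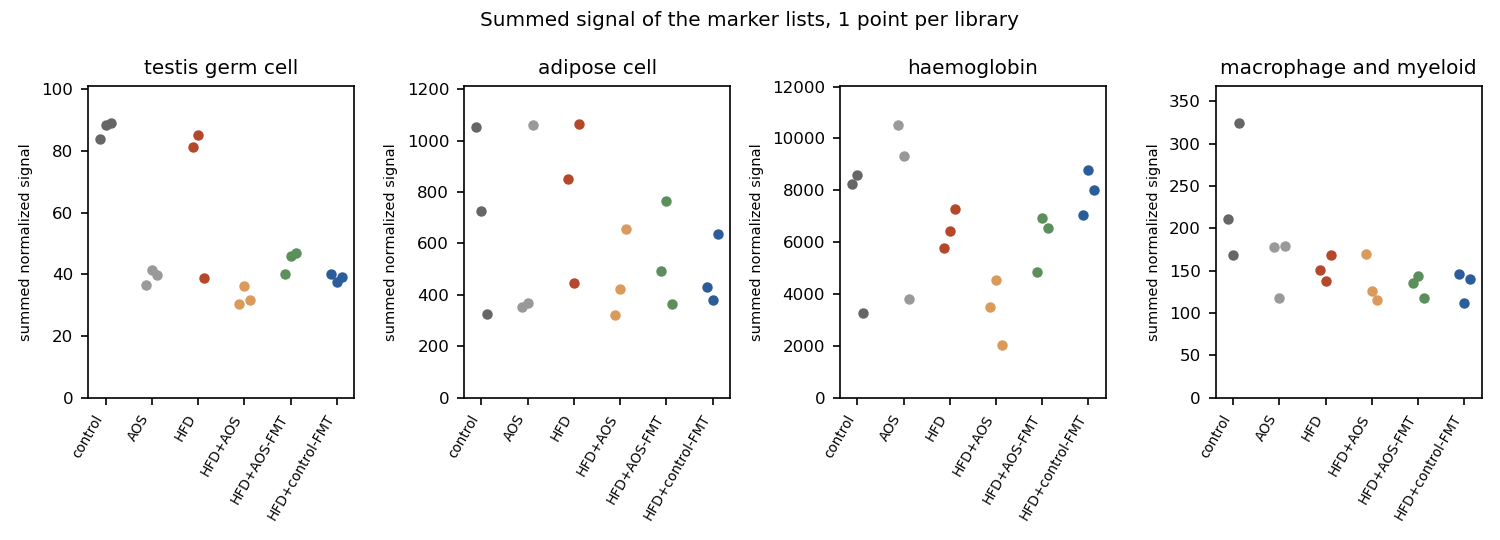
Summed normalized signal of 4 marker lists in each of the 18 libraries (points) by group, with axes starting at 0. HFD replicates 1 and 2 and the control libraries carry the germ cell signal, at 81.2 to 89.0, and adipose signal varies from library to library within every group.

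Genes of microbial and bile acid sensing gave small differences. Of 25 listed, 15 were tested, with 3 higher (20.0%, against 9.07% of all genes) and 0 lower without overlap and a median of 0.09. Slc10a2, the sodium-dependent bile acid carrier that recovers bile acids from urine, was at 19.1, 16.7 and 22.8 in the HFD libraries and 23.3, 28.1 and 23.8 in the HFD+control-FMT libraries (0.35, unadjusted p = 0.0413). The groups were apart by less than 1 unit. Fgfr4 was higher (0.17), while the bile acid receptor Nr1h4, FXR, differed by -0.26 and the aryl hydrocarbon receptor Ahr by 0.06. Cyp24a1, which degrades active vitamin D, was at 8.73, 11.2 and 5.37 against 22, 20.9 and 8.84 (0.90), overlapping through transplant replicate 3.

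The control transplant and the AOS transplant were then compared directly. Here too 0 of 12031 genes passed in limma, with 845 (7.02%) at an unadjusted p under 0.05, and 14 passed with control replicate 3 left out of the shared spread. Of the 845, 513 (4.26%) were higher with the AOS transplant and 332 (2.76%) lower. Srebf1 was at 7.95, 7.33 and 7.96 with the control transplant and 11, 12.9 and 13.4 with the AOS transplant (0.62, unadjusted p = 0.000246, adjusted p = 0.358). Its mean was 7.75 ± 0.361 (SD, n = 3) in HFD+control-FMT, 10.2 ± 2.35 in HFD, 9.64 ± 0.851 in HFD+AOS and 12.4 ± 1.25 in HFD+AOS-FMT, so it was lowest with the control transplant among the groups on the diet. Fads1 differed in the same direction, by 0.30 (unadjusted p = 0.0151), and over the 22 fatty acid synthesis genes the median was 0.21, with 4 higher and 1 lower at an unadjusted p under 0.05. For the ER chaperones the median was -0.09 with 1 of 21 at an unadjusted p under 0.05, and for cholesterol genes it was 0.08 with 0 of 25. Hspa5 differed by -0.16, Fdps by 0.02, Ppara by 0.25 (unadjusted p = 0.0473) and Pigr by -0.30. Ppara, at 14.9, 14.9 and 13.1 with the control transplant and 16.3, 18 and 16.9 with the AOS transplant, did not overlap. None of these had an adjusted p below 0.35, and a p that misses the threshold does not show that the transplants act alike.

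In the clock genes the AOS transplant was compared with the control transplant in the same way, with 7 of 18 higher and 2 lower at an unadjusted p under 0.05 and a median of 0.36. Arntl was at 1.3, 1.86 and 1.96 with the AOS transplant (-1.45, unadjusted p = 0.00226) and Dbp at 97.8, 68.4 and 63.8 (1.98). Transplant replicate 3 of the control group lay nearest to these values. Hmox1 was at 27.9, 26.1 and 28.8 with the AOS transplant against 39.3, 43.2 and 28 with the control transplant (-0.38, unadjusted p = 0.00918), overlapping by 1 library.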

How the data were processed

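RNA from frozen kidneys was sequenced in 18 libraries. Bowtie 0.12.2 and mm10 are named in the submitters' processing notes. How reads were counted, with which gene models and scaling, was not given in the sources used here. Signal values, 1 per gene symbol and library, were deposited by the authors without a unit. From 19545 entries, 26 date-like symbols and the weaker entry of 1 repeated symbol were dropped, leaving 19518 genes, and 18990 (97.3%) were found in GENCODE M21 (GRCm38). Of the values 17.26% were 0.

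All 18 libraries, as log2(value + 1), were fitted in limma 3.58.1 (R 4.3.3) with 6 groups, trend and robust estimation, two-sided tests and Benjamini-Hochberg adjustment over the 12031 genes with a signal of at least 1 in 3 or more libraries, and the threshold was 0.05. The test was checked on simulated data. All p-values per gene are from limma. Members, gene lists and tests were chosen with earlier results of these data known. Named genes were the 10 with the smallest p, the 15 largest differences each way among genes with groups that did not overlap, an unadjusted p under 0.05 and a mean of at least 5 in either group (predicted genes and pseudogenes passed over, 1 each way), and for each list the 5 members with the smallest p. Any tested member could be named of the cholesterol, fatty acid synthesis, adipose, clock, immediate early, heat shock and antioxidant lists. Other members named were chosen after their values were seen, and a few genes are not reported here. Promoter windows are from RefSeq (GRCm38.p6). Alternatives were the pseudocount, the filter, quantile normalization, the 2 groups alone, each library left out, a germ cell batch term, a replicate block, other estimates of the spread and library weights.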

Additional observations from a re-analysis of the deposited data

How the results depend on the processing

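In HFD+control-FMT against HFD, 0 genes passed the adjusted threshold in limma, with 541 at an unadjusted p under 0.05. Leaving out each of the 6 libraries in turn gave 0 to 8 passing genes. The 8, all without HFD replicate 3, were lower with the transplant. All of them (Oaz3, Ldhc, Prm2, Tnp2, Crisp2, Prm1, Tnp1 and Fabp9) are germ cell genes. Library weights gave 1 (Glt1d1). The unadjusted count ran from 350 to 510 over the libraries left out, the lowest without HFD replicate 1, and was 957 with no filter on low values, 1088 in the 2 groups alone, 1044 without control replicate 3, 336 with the germ cell batch term and 1323 with library weights. In HFD+AOS-FMT against HFD+control-FMT, 0 genes passed, and 845 had an unadjusted p under 0.05. Leaving out each library in turn gave 0 to 2, the 2 without HFD+control-FMT replicate 3. The 2 groups alone gave 1, leaving out control replicate 3 gave 14 and library weights gave 18. The causes were not tested.

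Same-numbered libraries did not deviate together (correlations 0.014, -0.073 and 0.037), and pairs of different number ran from -0.115 to 0.104. With 3 libraries per group these values cannot settle whether the numbers pair libraries. With the replicate block 0 genes passed and 518 had an unadjusted p under 0.05. Of 138 named genes under 16 settings, 2161 values kept their direction and side of the threshold and 2 gained the threshold, Glt1d1 with library weights and Prm1 without HFD replicate 3. The other 37 turned in sign, without passing. Over the libraries left out, the log2 difference ran from -0.04 to 0.22 for Acadm, -0.17 to 0.07 for Adgre1, -0.01 to 0.29 for Atf4, -0.05 to 0.05 for Atf6, -0.21 to 0.12 for Cd74, -0.03 to 0.63 for Ddit3, -0.01 to 0.06 for Dnajb9, -0.65 to 1.70 for Egr1, -0.11 to 1.62 for Fos, -0.24 to 0.11 for H2-Aa, -0.29 to 0.14 for H2-Ab1, -0.08 to 0.03 for Hadha, -0.23 to 0.13 for Ren1, -0.06 to 0.32 for Umod and -0.09 to 0.09 for Xbp1. With the germ cell batch term the differences were -0.07 for Acadm, -0.27 for Aqp2, -0.06 for Atf4, 0.10 for Atf6, -0.40 for Ddit3, -0.03 for Dnajb9, -1.58 for Egr1, -0.38 for Fos and 0.13 for Prm1. With library weights they were 0.07 for Adgre1, 0.00 for Atf6 and -0.01 for Xbp1, which was also -0.01 with quantile normalization. Of the list medians 648 kept within the spread between replicates and 22 moved, among them the adipose list, at -1.31 with the germ cell batch term against -0.74. Counts of genes without overlap grow when a library is left out, since fewer values must separate. Leaving out libraries for these counts was chosen after seeing the data. Of the 7 lists recounted this way, the ER chaperone list gave 11 to 13 lower and 0 to 1 higher of 21, and in the other 6 the count either way grew by over 1.5 times without 1 library. It reached 13 from 8 for cholesterol, 14 from 8 for fatty acid synthesis, 11 from 6 for fatty acid oxidation, 13 from 7 for the clock, 15 from 7 for insulin and growth factors and 8 from 4 for macrophages. Over all genes the count grew by over 1.5 times as well, from 1858 to between 2895 and 3234, so such growth is not particular to these lists. The depth is unknown, so counting error of low signals could not be set apart.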

Other observations

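Genes of the class II antigen presenting complex held the largest single difference of the comparison. H2-Ea-ps (chr17:34341959-34344645, GRCm38), annotated as a polymorphic pseudogene whose product is made in some mouse strains and not in others, was at 0.32, 0.11 and 0 in the HFD libraries and 2.32, 6.93 and 16.3 in the HFD+control-FMT libraries (2.76, unadjusted p = 0.00166, adjusted p = 0.959 in limma). The other 12 libraries had 2.14 or more, so the 3 HFD libraries were the low ones. Its partner H2-Eb1 was at 0.48, 7.01 and 1.26 against 1.82, 6.73 and 14.7. Of the 7 class II genes tested, 4 were above 0 and 3 below with a median of 0.25, and H2-Ea-ps alone did not overlap. The 3 below were H2-Aa (-0.09), H2-Ab1 (-0.07) and Cd74 (-0.05). The mice are of an outbred stock, and genotypes were not measured here.

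Among drug and toxin handling genes, Fmo2, a flavin monooxygenase, was at 90.4, 83 and 108 in the HFD libraries and 109, 111 and 111 with the transplant (0.24, unadjusted p = 0.0441). Ugt1a6a, a glucuronosyltransferase, was lower at 9.62, 9.56 and 10.9 against 8.18, 7.75 and 9.02 (-0.24, unadjusted p = 0.0486). Both were without overlap, and the list of 23 tested genes had a median of 0.06. The tight junction gene Cldn1 was at 4.93, 4.46 and 4.41 against 6.93, 8.93 and 5.56 (0.52), and Kdm3a, a hypoxia-induced demethylase, at 4.96, 5.13 and 4.8 against 6.78, 6.16 and 6.66 (0.34, unadjusted p = 0.0325). Fga, a fibrinogen chain that injured tubules make, was at 3.57, 4.53 and 4.3 against 5.21, 7.42 and 5.65 (0.46, unadjusted p = 0.0139). Cd8a, the T cell coreceptor, was lower at 1.62, 1.05 and 1.43 against 0.95, 0.16 and 0.53 (-0.64, unadjusted p = 0.03) at signals near 1. The 28 tested lysosome and autophagy genes had a median of -0.06.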
